A study of Mus musculus with 12 samples.

Results

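The genes described here are 10 genes of antigen presentation by major histocompatibility complex (MHC) class II molecules in mouse skin, chosen by symbol from the 33539 genes of the count table: H2-Aa, H2-Ab1, H2-Eb1, Cd74, Ciita, H2-DMa, H2-DMb1, H2-DMb2, H2-Oa and Ctss. All 10 were found, each in 1 row, and all 10 passed the filter on low counts, as did 18147 genes in all. RNA was sequenced from 12 skin libraries: 3 from wild-type mice (control), 5 from mice with imiquimod-induced inflammation (IMQ) and 4 from mice that were both imiquimod-induced and Tcn2-deficient (Tcn2-/- IMQ). Imiquimod, an agonist of Toll-like receptor 7, gives a psoriasis-like inflammation on mouse skin, and Tcn2 encodes transcobalamin, which carries vitamin B12 from plasma into cells. The series states that the Tcn2-/- IMQ mice were to be set against IMQ mice of wild-type genotype. Strain, age, sex, dose, day of sampling, and whether the control mice received a vehicle were not given in the sources used here. There was no Tcn2-deficient group without imiquimod, so that the effect of the deletion alone cannot be told apart from its effect under imiquimod.

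MHC class II molecules show peptides from endocytosed protein to CD4 T cells. An alpha and a beta chain assemble around the invariant chain, which blocks the groove until cathepsin S and other proteases cut it down to a short remnant. H2-DM then exchanges that remnant for antigen peptide, and H2-O restrains H2-DM. Transcription of these genes is directed by the coactivator CIITA, which binds no DNA itself and works through factors that sit on a conserved X box and Y box in the promoters. In skin the pathway is known from dendritic cells, Langerhans cells, macrophages and B cells, and interferon gamma can induce it in other cells.

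Tcn2, the deleted gene, was read at 19.9, 75.9 and 85.9 CPM (counts scaled to library size) in control replicates 1 to 3. It was read at 67.0 to 141 CPM in the 5 IMQ libraries and at 1.91 to 5.59 CPM in the 4 Tcn2-/- IMQ libraries, so that the deficient group stood apart from both others as labelled. Library totals were 16182324 to 18503487 counts. Control replicate 1 and Tcn2-/- IMQ replicate 2 lay lowest on the first principal component and had the highest mitochondrial shares of counts, 10.3% and 8.08% against 2.78% to 6.06% in the other libraries. Both were also low in leukocyte RNA: Ptprc, the CD45 gene carried by all leukocytes, was at 14.6 CPM in control replicate 1 against 200 and 220 CPM in control replicates 2 and 3. Xist exceeded the Y-linked gene Ddx3y in control replicates 2 and 3 and in IMQ replicate 1 only, so the groups differed in sex. The titles carry the word muscle while the tissue label is skin. The summed level of 18 skeletal muscle genes was 15186 to 15432 CPM in control, 3415 to 8575 CPM in IMQ and 9799 to 40214 CPM in Tcn2-/- IMQ libraries, and epidermal keratins were abundant in all 12. The part of these differences in the values below was not tested unless a value with and without them is given.

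Of the 10 genes, 7 lie in the MHC region of chromosome 17, between 34311314 (start of H2-Oa) and 34535648 (end of H2-Eb1) on GRCm39. H2-Aa is on the minus strand at 34501718 to 34506797, next to H2-Ab1 at 34476663 to 34488393 on the plus strand. Ciita is on chromosome 16 at 10297923 to 10346282 and Ctss on chromosome 3 at 95434097 to 95463714, each on the plus strand. RefSeq promoter windows (250 bases before to 50 after a gene start, GRCm38.p6) matched 7 of the 10 genes, with 8 windows. Windows are shown for 3 genes in which a core of the X box (GCAAC) preceded a Y box (GATTGG). They are also shown for the H2-DM beta genes, with an exact match to the Y box only, and for Ctss, with neither. Only these exact letters were sought, so variant forms of either box were not counted. The windows are printed 5′ to 3′ along the gene, with these motifs in capitals.
H2-Aa, minus strand, chr17:34287774-34288073: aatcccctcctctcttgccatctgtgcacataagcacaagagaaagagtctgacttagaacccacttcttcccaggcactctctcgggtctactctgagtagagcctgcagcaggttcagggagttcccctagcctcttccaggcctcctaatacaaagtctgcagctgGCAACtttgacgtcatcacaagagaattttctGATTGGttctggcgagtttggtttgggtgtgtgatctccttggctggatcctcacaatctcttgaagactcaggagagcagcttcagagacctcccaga
H2-Eb1, plus strand, chr17:34305617-34305916: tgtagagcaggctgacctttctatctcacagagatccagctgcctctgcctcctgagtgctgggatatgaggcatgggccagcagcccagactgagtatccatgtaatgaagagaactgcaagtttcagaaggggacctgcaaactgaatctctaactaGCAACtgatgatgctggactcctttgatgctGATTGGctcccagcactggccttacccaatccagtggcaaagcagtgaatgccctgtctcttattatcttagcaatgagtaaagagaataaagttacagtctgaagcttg
H2-Oa, plus strand, chr17:34092129-34092428: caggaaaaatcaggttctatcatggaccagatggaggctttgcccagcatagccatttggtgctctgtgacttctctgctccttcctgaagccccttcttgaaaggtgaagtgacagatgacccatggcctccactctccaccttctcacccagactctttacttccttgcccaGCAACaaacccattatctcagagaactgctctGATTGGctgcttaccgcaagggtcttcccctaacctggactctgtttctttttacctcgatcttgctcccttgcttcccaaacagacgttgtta
H2-DMb1, plus strand, chr17:34152941-34153240: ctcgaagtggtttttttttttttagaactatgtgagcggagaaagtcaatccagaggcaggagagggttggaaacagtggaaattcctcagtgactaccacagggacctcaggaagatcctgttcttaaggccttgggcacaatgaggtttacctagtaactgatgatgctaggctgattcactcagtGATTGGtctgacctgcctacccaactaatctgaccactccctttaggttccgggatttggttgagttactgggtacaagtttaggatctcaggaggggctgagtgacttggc
H2-DMb2, plus strand, chr17:34144999-34145298: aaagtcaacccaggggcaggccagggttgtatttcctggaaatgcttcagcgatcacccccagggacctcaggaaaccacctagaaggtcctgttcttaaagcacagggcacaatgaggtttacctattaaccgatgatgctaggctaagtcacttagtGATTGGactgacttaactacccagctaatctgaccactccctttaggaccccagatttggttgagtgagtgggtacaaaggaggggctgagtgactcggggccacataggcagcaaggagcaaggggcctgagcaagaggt
Ctss, plus strand, chr3:95526536-95526835: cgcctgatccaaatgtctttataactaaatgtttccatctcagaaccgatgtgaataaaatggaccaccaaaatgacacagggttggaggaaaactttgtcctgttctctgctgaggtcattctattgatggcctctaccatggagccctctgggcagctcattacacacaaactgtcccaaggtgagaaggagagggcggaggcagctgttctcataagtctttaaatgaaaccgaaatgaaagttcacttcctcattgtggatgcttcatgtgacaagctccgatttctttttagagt

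In H2-Aa, H2-Eb1 and H2-Oa the X core started 32, 31 and 32 bases before the Y box, and the Y box started 49, 60 and 44 bases before the gene start. Searched on both strands, such a pair with starts 20 to 40 bases apart on 1 strand was in 120 of 32851 promoter windows (0.365%); the spacing was set after these windows had been read. The Y box alone was in 16.1% of all windows and the X core alone in 35.2%. In H2-DMb1 and H2-DMb2 the Y box started 62 and 91 bases before the gene start, and 1 of the 2 H2-DMa windows held a Y box 199 bases before its start. A match is a description of letters, not of binding. H2-Oa shares the pair with H2-Aa and H2-Eb1, yet its level per kilobase, given below, was far below theirs.

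H2-Aa, the alpha chain of the I-A molecule, was at 63.0, 454 and 616 CPM in control replicates 1 to 3. The 5 IMQ libraries lay between 129 and 215 CPM, with a median of 189 CPM. The 4 Tcn2-/- IMQ libraries held 46.8, 9.41, 8.22 and 17.97 CPM. The Tcn2-/- IMQ libraries were thus below every IMQ and every control library, while the IMQ libraries lay between control replicate 1 and the other 2 controls. Group means were 377 ± 284 CPM in control (SD, n = 3), 182 ± 37.0 CPM in IMQ (n = 5) and 20.6 ± 17.98 CPM in Tcn2-/- IMQ (n = 4).

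H2-Ab1, the beta chain that pairs with H2-Aa, was at 57.1, 296 and 435 CPM in control replicates 1 to 3. Its IMQ libraries held 70.1 to 167 CPM, with a median of 132 CPM, and its Tcn2-/- IMQ libraries 41.2, 11.5, 6.80 and 13.7 CPM. The order of groups was that of H2-Aa, again with no overlap between the Tcn2-/- IMQ libraries and either other group. H2-Eb1, the beta chain of the I-E molecule, was at 58.6, 334 and 433 CPM in control, 68.6 to 151 CPM (median 134) in IMQ and 34.9, 10.4, 7.79 and 14.6 CPM in Tcn2-/- IMQ libraries. In both genes Tcn2-/- IMQ replicate 1 was the highest of its group and still below the lowest IMQ library.

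Cd74 encodes the invariant chain and lies on the plus strand of chromosome 18 at 60936920 to 60945724 (GRCm39). Per length, it had the highest level of the 10 genes in control and IMQ libraries. Control replicates 1 to 3 held 113, 917 and 1464 CPM of Cd74. The 5 IMQ libraries held 268, 360, 456, 607 and 430 CPM in replicate order, and the 4 Tcn2-/- IMQ libraries 87.2, 24.1, 15.6 and 34.3 CPM. As for the chains it escorts, the highest Tcn2-/- IMQ library was below the lowest library of both other groups, and control replicate 1 was below all 5 IMQ libraries.

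Ciita, the coactivator, was at 2.31, 19.9 and 28.0 CPM in control replicates 1 to 3. It was at 4.49, 8.34, 19.99, 33.3 and 16.9 CPM in the IMQ libraries and at 4.10, 1.25, 0.989 and 1.63 CPM in the Tcn2-/- IMQ libraries. The IMQ libraries spread over a wider range than for H2-Aa, and 1 of them, replicate 4, was above all controls. The Tcn2-/- IMQ libraries were below all IMQ libraries but overlapped the controls through control replicate 1.

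H2-DMa and H2-DMb1 encode the alpha and a beta chain of H2-DM. H2-DMa was at 8.47, 39.0 and 59.5 CPM in control, 14.7 to 42.8 CPM (median 29.4) in IMQ and 10.9, 4.17, 5.69 and 3.79 CPM in Tcn2-/- IMQ libraries. H2-DMb1 was at 9.29, 32.7 and 50.7 CPM in control, 12.4 to 31.6 CPM (median 22.9) in IMQ and 6.71, 3.04, 5.75 and 3.79 CPM in Tcn2-/- IMQ libraries. Both were lower in every Tcn2-/- IMQ library than in any IMQ library, and H2-DMb1 was also lower than in any control.

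H2-DMb2, the second H2-DM beta gene, was at 0.770, 6.63 and 11.1 CPM in control replicates 1 to 3. It was at 1.41 to 5.64 CPM in IMQ libraries and at 2.20, 0.357, 0.185 and 1.63 CPM in Tcn2-/- IMQ libraries, which overlapped both other groups. Of the 50-base stretches of the longest H2-DMb1 transcript (GENCODE M21), 27.2% also occur in H2-DMb2, so reads can be split between these genes, and their levels are uncertain one by one. H2-Oa, the alpha chain of the H2-DM inhibitor H2-O, is known mainly from B cells and was near the limit of detection. It had 1, 10 and 10 counts in control, 1, 10, 18, 8 and 6 counts in IMQ and 4, 0, 1 and 4 counts in Tcn2-/- IMQ libraries. The 0 of Tcn2-/- IMQ replicate 2 allows up to 3 counts, or 0.179 CPM, and H2-Oa was called in none of the 3 comparisons by edgeR or DESeq2.

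Ctss, the cathepsin S gene, was at 37.3, 339 and 354 CPM in control replicates 1 to 3. The IMQ libraries held 246 to 360 CPM with a median of 299 CPM, and the Tcn2-/- IMQ libraries 81.9, 13.8, 171 and 129 CPM. The Tcn2-/- IMQ libraries were below all IMQ libraries, yet their highest Ctss values were in replicates 3 and 4, where H2-Aa was at 8.22 and 17.97 CPM. The order of the Tcn2-/- IMQ libraries in Ctss was thus not their order in H2-Aa.

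**Figure D1:**
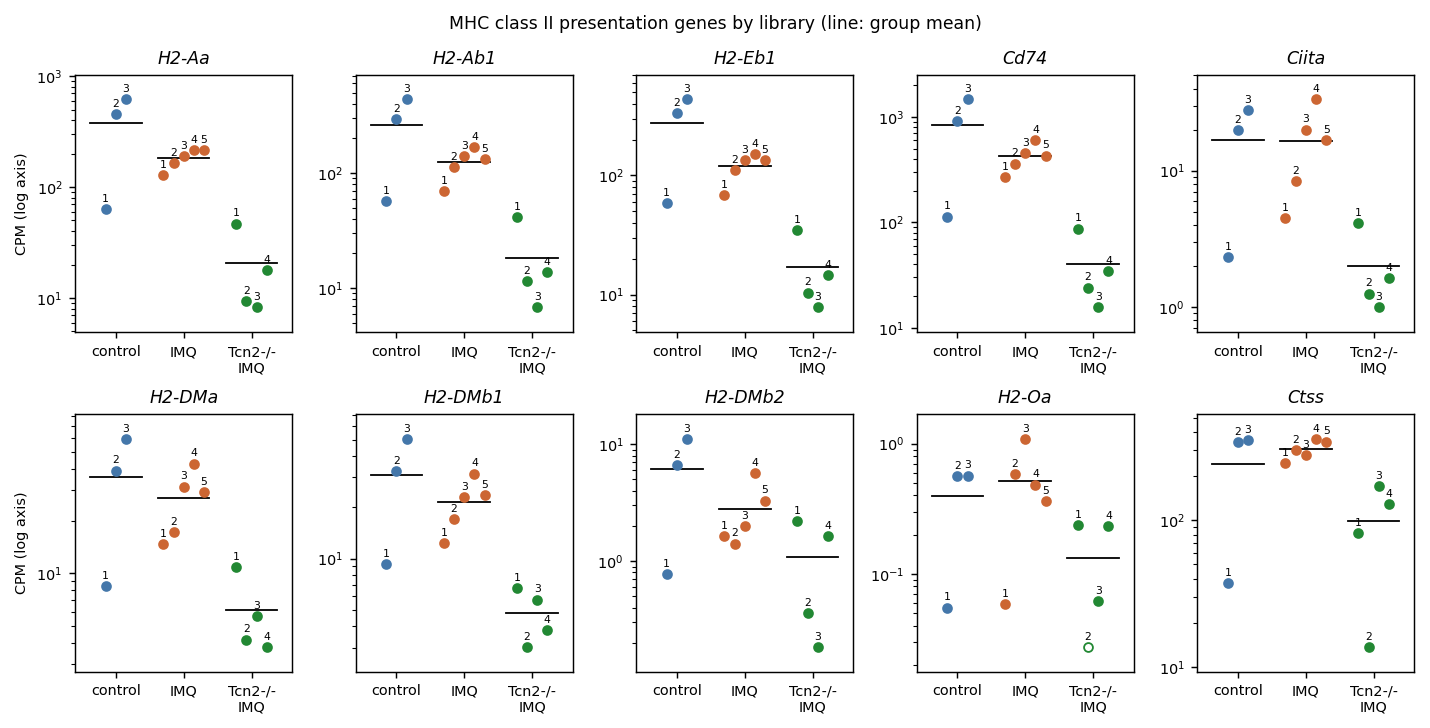
Level of each of the 10 genes in CPM on a log axis, 1 point per library (number: replicate) for 3 control, 5 IMQ and 4 Tcn2-/- IMQ libraries; the line is the group mean and the open H2-Oa point marks a library with 0 counts, drawn at a place below the lowest value. The Tcn2-/- IMQ points lie below every IMQ point in 8 of the 10 panels, H2-DMb2 and H2-Oa being the exceptions.

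In IMQ against control skin, none of the class II presentation genes passed the test. By edgeR's quasi-likelihood test, with p adjusted over all genes by Benjamini-Hochberg, 0 of the 10 were called, with 0 at an unadjusted p below 0.05 and 0 by DESeq2. Of all genes tested, 1.23% were called in this comparison and 15.6% had an unadjusted p below 0.05. The same libraries did show the imiquimod response: S100a8, a calprotectin subunit, rose by 7.10 on the log2 scale (adjusted p = 0.00568). H2-Eb1 had the smallest p of the 10, with a log2 change of −1.20 (SE 0.569, 95% interval −2.44 to 0.04, adjusted p = 0.337). H2-Aa stood at −1.05 (adjusted p = 0.453), Cd74 at −0.97 (adjusted p = 0.509), Ciita at −0.01 (adjusted p = 0.995) and Ctss at 0.33 (adjusted p = 0.854). The median log2 change of the 10 genes was −0.75, against 0.00 over all genes tested.

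The position of the IMQ libraries against control depended on control replicate 1. With all libraries, 0 of the 10 genes were lower in every IMQ than in every control library, against 7.4% of all genes. Without control replicate 1 and Tcn2-/- IMQ replicate 2, 6 of the 10 were (H2-Aa, H2-Ab1, H2-Eb1, Cd74, H2-DMb1 and H2-DMb2), against 13.3% of all genes, and still 0 of the 10 were called. Without control replicate 1, Ctss stood at −0.18 on the log2 scale. Some of the changes also took the other sign with sex as a factor, among them Cd74 at 0.04 (SE 1.23) and H2-DMa at 0.13 (SE 0.953).

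In Tcn2-/- IMQ against IMQ skin, all 10 genes had negative log2 changes, and 8 of the 10 were lower in every Tcn2-/- IMQ library than in any IMQ library. Of all genes tested, 3.18% were lower without overlap in this comparison. The 8 were H2-Aa, H2-Ab1, H2-Eb1, Cd74, Ciita, H2-DMa, H2-DMb1 and Ctss. By edgeR, however, 0 of the 10 were called, where 0.022% of all genes were called lower, that is 4 of 18147. The same 8 had an unadjusted p below 0.05, as did 11.8% of all genes tested (6.16% with a lower level in Tcn2-/- IMQ). By DESeq2, 7 of the 10 were called lower (the same 8 without Ctss), against 1.65% of genes with an adjusted p.

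Cd74 had the largest difference between these 2 groups, with a log2 change of −3.40 (SE 0.705, 95% interval −4.93 to −1.86), which is 10.53-fold lower, and an adjusted p of 0.123. H2-Aa was 8.85-fold lower (log2 −3.15, SE 0.671, adjusted p = 0.128). Ciita was 8.29-fold lower (log2 −3.05, SE 0.784, adjusted p = 0.164). H2-Eb1 (−2.82, adjusted p = 0.123) and H2-Ab1 (−2.77, adjusted p = 0.134) followed. The H2-DM chains had smaller differences, −2.16 for H2-DMb1 (adjusted p = 0.128) and −2.14 for H2-DMa (adjusted p = 0.164). The smallest were those of H2-Oa at −1.89 (adjusted p = 0.457), Ctss at −1.62 (adjusted p = 0.375) and H2-DMb2 at −1.35 (adjusted p = 0.541). The median of the 10 was −2.46, against 0.01 over all genes tested.

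Whether these differences were called depended on which libraries were in the fit. Without control replicate 1, which is in neither group compared, edgeR called 5 of the 10 (H2-Aa, H2-Ab1, H2-Eb1, Cd74 and H2-DMb1), and with only these 2 groups fitted it called 4 (without H2-Ab1). Without IMQ replicate 1, the 1 IMQ library in which Xist exceeded Ddx3y, the log2 change of H2-Aa was −3.23 and that of Cd74 −3.50. Ptprc was at 33.4, 11.6, 67.0 and 66.04 CPM in Tcn2-/- IMQ against 103 to 250 CPM in IMQ libraries (log2 −1.92, adjusted p = 0.3). In bulk RNA, fewer cells of a type and less RNA per cell cannot be told apart.

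In Tcn2-/- IMQ against control skin, 5 of the 10 genes fell: H2-Aa, H2-Ab1, H2-Eb1, Cd74 and H2-DMb1. Of all genes tested, 0.733% were called lower. An unadjusted p below 0.05 was found for 8 of the 10, against 12.8% of all genes (6.78% with a lower level in Tcn2-/- IMQ). Cd74 fell by 4.37 on the log2 scale (SE 0.770, adjusted p = 0.0248), which is 20.6-fold. H2-Aa fell by 4.20 (SE 0.738, adjusted p = 0.0248), H2-Eb1 by 4.02 (SE 0.654, adjusted p = 0.0223) and H2-Ab1 by 3.84 (SE 0.695, adjusted p = 0.0262). H2-DMb1 fell by 2.68 (SE 0.504, adjusted p = 0.0294), and the summed counts of H2-DMb1 and H2-DMb2 by 2.65 (SE 0.532, adjusted p = 0.0363). H2-DMa at −2.54 (adjusted p = 0.0606), Ciita at −3.07 (adjusted p = 0.102), H2-DMb2 at −2.49 (adjusted p = 0.237), H2-Oa at −1.51 (adjusted p = 0.606) and Ctss at −1.30 (adjusted p = 0.513) did not pass.

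The same 5 genes were the ones lower without overlap against control, where 5.9% of all genes were. DESeq2 called 7 of the 10 lower, adding H2-DMa and Ciita, against 2.35% of genes with an adjusted p. With control replicate 1 left out, edgeR called 7, and with control replicate 1 and Tcn2-/- IMQ replicate 2 both left out it called 7 and all 10 were lower without overlap, against 20.7% of all genes. Without Tcn2-/- IMQ replicate 2 it did not call H2-DMb1. It called 0 of the 10 without control replicate 2, without control replicate 3, without Tcn2-/- IMQ replicate 3 or without Tcn2-/- IMQ replicate 4, and likewise 0 with sex as a factor or with only these 2 groups fitted. This comparison and the first share the control libraries, and it differs from the second in its reference group only.

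**Figure D2:**
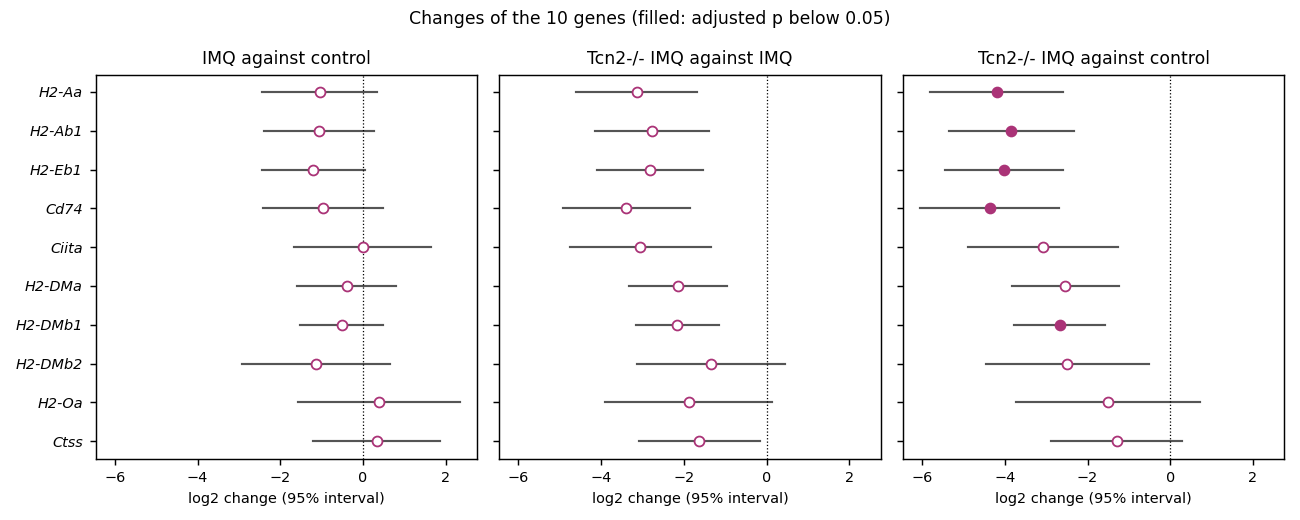
Log2 change of each of the 10 genes with its 95% interval in the 3 comparisons from the edgeR fit of 12 libraries; filled points have an adjusted p below 0.05. No point is filled for IMQ against control or for Tcn2-/- IMQ against IMQ, although 8 of the 10 intervals of the latter lie wholly below 0, and 5 are filled for Tcn2-/- IMQ against control.

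The levels of the class II chains and the invariant chain varied far more between libraries than the ratios between these genes. H2-Aa spanned 74.9-fold between its lowest library (Tcn2-/- IMQ replicate 3) and its highest (control replicate 3). Over the same 12 libraries the CPM ratio of Cd74 to H2-Aa stayed between 1.80 and 2.82. That of H2-Ab1 to H2-Aa was 0.653 to 0.906 in control, 0.545 to 0.776 in IMQ and 0.763 to 1.22 in Tcn2-/- IMQ libraries. That of H2-Eb1 to H2-Aa was 0.704 to 0.929 in control, 0.534 to 0.711 in IMQ and 0.747 to 1.10 in Tcn2-/- IMQ libraries. Relative to H2-Aa, H2-Eb1 was thus higher in every Tcn2-/- IMQ than in any IMQ library, and H2-Ab1 nearly so, with a small overlap. A library low in 1 of these genes was low in all of them.

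The ratio of Ctss moved further. Its CPM ratio to H2-Aa was 0.575 to 0.748 in control and 1.47 to 1.91 in IMQ libraries, so that the ranges of these groups did not overlap. In Tcn2-/- IMQ replicates 1 to 4 it was 1.75, 1.46, 20.8 and 7.18. The first 2 of these lie near the IMQ range, and replicates 3 and 4 lie far above every other library. The ratio of H2-DMa to H2-Aa was 0.0860 to 0.134 in control, 0.106 to 0.198 in IMQ and 0.211 to 0.692 in Tcn2-/- IMQ libraries, the last above all others. The ratio of Ciita to H2-Aa was 0.0366 to 0.0455 in control, 0.0349 to 0.155 in IMQ and 0.0877 to 0.133 in Tcn2-/- IMQ libraries. Relative to H2-Aa, Ciita was thus not lower in any Tcn2-/- IMQ library than in control. These ratios were not tested.

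**Figure D3:**
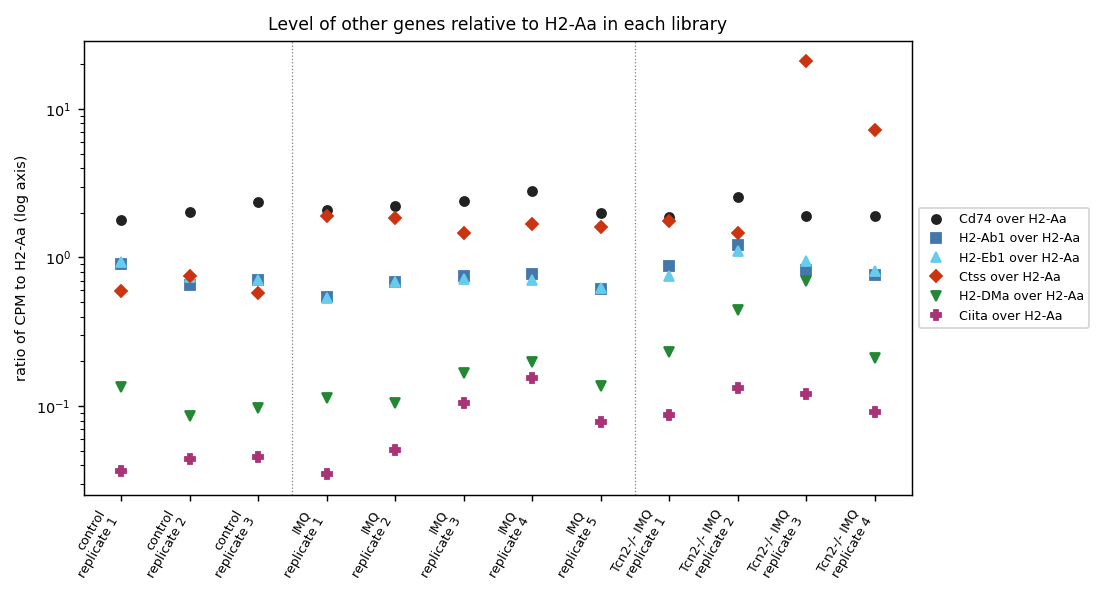
Ratio of the CPM of 6 genes to that of H2-Aa in each of the 12 libraries, on a log axis; dotted lines separate control, IMQ and Tcn2-/- IMQ libraries. Cd74 stays between 1.80 and 2.82 times H2-Aa and H2-Eb1 is higher in all Tcn2-/- IMQ than in all IMQ libraries, while Ctss reaches 20.8 and 7.18 times H2-Aa in Tcn2-/- IMQ replicates 3 and 4.

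Levels of different genes were compared per kilobase of the longest coding transcript. In control libraries the mean was 589.7 CPM per kilobase for Cd74, 334.6 for H2-Aa, 216.8 for H2-Ab1, 179.7 for Ctss and 165.1 for H2-Eb1. H2-DMb1 at 21.99, H2-DMa at 17.8, H2-DMb2 at 4.17, Ciita at 2.79 and H2-Oa at 0.363 CPM per kilobase were lower. In IMQ libraries the order began with Cd74 at 300.8 CPM per kilobase, followed by Ctss at 225.3 and H2-Aa at 161.7. In Tcn2-/- IMQ libraries Ctss came first at 73.1 CPM per kilobase, by group mean, above Cd74 at 28.6 and H2-Aa at 18.3. That first place rests on replicates 3 and 4, with 126.5 and 95.2 CPM per kilobase of Ctss. In replicates 1 and 2 Ctss was at 60.5 and 10.15 CPM per kilobase, under Cd74 at 61.8 and 17.1. Neighbouring places were not tested.

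Other genes whose level followed the class II chains were sought over all genes tested, by Pearson's r across the 12 libraries between log2 CPM and the mean of the standardised log2 CPM of H2-Aa, H2-Ab1, H2-Eb1 and Cd74. The 12 libraries share group differences and depth, and the r are a description. Outside the 10 genes the highest was Itgax, which encodes the CD11c integrin of dendritic cells, with r = 0.967, and 0.848 after group means were subtracted. Grap2, a T cell adaptor, had r = 0.959, Ptpn22, a lymphoid phosphatase, 0.954, and Trdc, the constant region of the T cell receptor delta chain, 0.948. Next were Adgrg5 at 0.946, P2ry10 at 0.943, the interleukin 7 receptor gene Il7r at 0.940, the dendritic cell activation marker Cd83 at 0.939, the guanylate-binding protein gene Gbp8 at 0.938 and Itgae, which encodes the CD103 integrin, at 0.937. Among the 10 genes themselves, H2-DMb1 had r = 0.957, H2-DMa 0.952, Ciita 0.938, H2-DMb2 0.878, H2-Oa 0.742 and Ctss 0.682.

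Itgax itself was at 8.19, 19.1 and 20.1 CPM in control, 5.71 to 12.2 CPM in IMQ and 3.62, 0.893, 0.247 and 1.28 CPM in Tcn2-/- IMQ libraries. It was lower in every Tcn2-/- IMQ library than in any other, with Tcn2-/- IMQ replicate 3 lowest, as for Cd74. Its log2 change was −2.71 against IMQ (adjusted p = 0.132), and it fell by 3.38 against control (adjusted p = 0.0329). That call was lost in 5 of 12 fits without 1 library (control replicates 2 and 3 and Tcn2-/- IMQ replicates 2 to 4).

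Among 11 tested genes of a list of other class II genes and endosomal processing, 0 were called against IMQ, with a median log2 change of −0.36, and 1 fell against control. Against IMQ 1 had an unadjusted p below 0.05, H2-Eb2 at −3.40 (adjusted p = 0.183), and DESeq2 called 0. Marchf1 was at −1.37 and lower without overlap (adjusted p = 0.517). The proteases and the thiol reductase of this list, which work in the same compartment, had small changes. Ifi30, the lysosomal thiol reductase GILT, was at −0.36 against IMQ (adjusted p = 0.685), legumain (Lgmn) at −0.29 (adjusted p = 0.866) and cathepsin L (Ctsl) at −0.16 (adjusted p = 0.92). The 1 that fell against control was H2-Eb2, a beta chain gene next to H2-Eb1. It had 9, 23 and 25 counts in control, 2 to 12 in IMQ and 0, 0, 0 and 2 in Tcn2-/- IMQ libraries. Per total counts this is a ratio of 39.6 between control and Tcn2-/- IMQ (exact 95% counting interval 10.47 to 335), with an adjusted p of 0.033. The call was lost in 6 of 11 fits without 1 library (control replicates 2 and 3 and each of the 4 Tcn2-/- IMQ libraries). H2-Ea, the alpha chain of I-E and a gene known to be silent in several laboratory strains, had 0 counts in all 12 libraries, which allows up to 0.185 CPM in any 1 of them, so that H2-Eb1 was read without its partner.

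None of the factors that act on class II promoters passed the test. Of 13 genes of class II transcription, 0 were called in any of the 3 comparisons by edgeR, with 1, 3 and 2 at an unadjusted p below 0.05 (15.6%, 11.8% and 12.8% of all genes), and DESeq2 called 1, against control. The median log2 change against IMQ was −0.07. Rfx5, the X box factor, was at −0.03 (adjusted p = 0.968) and Nfyc, a subunit of the Y box factor, at 0.14 (adjusted p = 0.733). Nfyb, another subunit, was at 0.39 (adjusted p = 0.395). Irf8, a factor of dendritic cells and monocytes, was at −1.64 and lower without overlap (adjusted p = 0.365).

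Of 18 tested genes of the interferon gamma axis, all had negative log2 changes against IMQ with a median of −1.03, and 13 had an unadjusted p below 0.05, while edgeR called 0 and DESeq2 1. Against control 2 fell, Cxcl9 with a log2 change of −4.97 (adjusted p = 0.0267) and Cxcl10 with −4.84 (adjusted p = 0.0432), both chemokines induced by interferon gamma. The Cxcl9 call was lost in 4 of 12 fits without 1 library (control replicates 2 and 3 and Tcn2-/- IMQ replicates 3 and 4), and the Cxcl10 call in 7 (these, IMQ replicate 4 and Tcn2-/- IMQ replicates 1 and 2). Cxcl9 was at 29.6, 49.9 and 30.8 CPM in control, 3.90 to 55.5 CPM in IMQ and 1.90, 1.49, 0.927 and 0.350 CPM in Tcn2-/- IMQ libraries. The cytokine itself was hardly read: Ifng had 4, 1 and 3 counts in control, 0 to 2 in IMQ and 0 in all 4 Tcn2-/- IMQ libraries. MHC class I presentation had smaller changes: of 14 genes, 0 were called against IMQ by edgeR or DESeq2, with 7 at an unadjusted p below 0.05 and a median of −0.69. Against control 2 fell, the peptide transporter Tap1 with −1.92 (adjusted p = 0.0384) and the immunoproteasome subunit Psmb9 with −1.79 (adjusted p = 0.033). Of the 12 fits without 1 library, the Psmb9 call was lost in 6 (control replicates 2 and 3 and all 4 Tcn2-/- IMQ libraries), and the Tap1 call in 9 (these and IMQ replicates 1, 4 and 5). DESeq2 called 9 of the 14 lower against control, against 2.35% of genes with an adjusted p. In that comparison 9 of the 14 were lower without overlap (5.9% of all genes), and the median log2 change was −1.28. By edgeR 11 were lower at an unadjusted p below 0.05 (6.78% of all genes). H2-K1, a classical class I heavy chain, was at −0.67 against IMQ (adjusted p = 0.36). The difference between the class I and class II changes was not tested.

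Of 10 tested genes of co-stimulation and the CD4 side, edgeR called 0 and DESeq2 1 against IMQ, with a median of −1.58 and 5 at an unadjusted p below 0.05. The co-stimulator Cd86 was at −1.89 (adjusted p = 0.307) and lower without overlap. Against control 1 fell, Pdcd1lg2, the gene of the inhibitory ligand PD-L2 of dendritic cells and macrophages, with 61 counts over the control libraries and 2 over the Tcn2-/- IMQ libraries. Per total counts this is a ratio of 42.4 (exact 95% counting interval 11.2 to 358), with an adjusted p of 0.0388. The call was lost in 7 of 12 fits without 1 library (control replicates 2 and 3 and Tcn2-/- IMQ replicates 1, 3 and 4, and IMQ replicates 1 and 5).

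**Figure D4:**
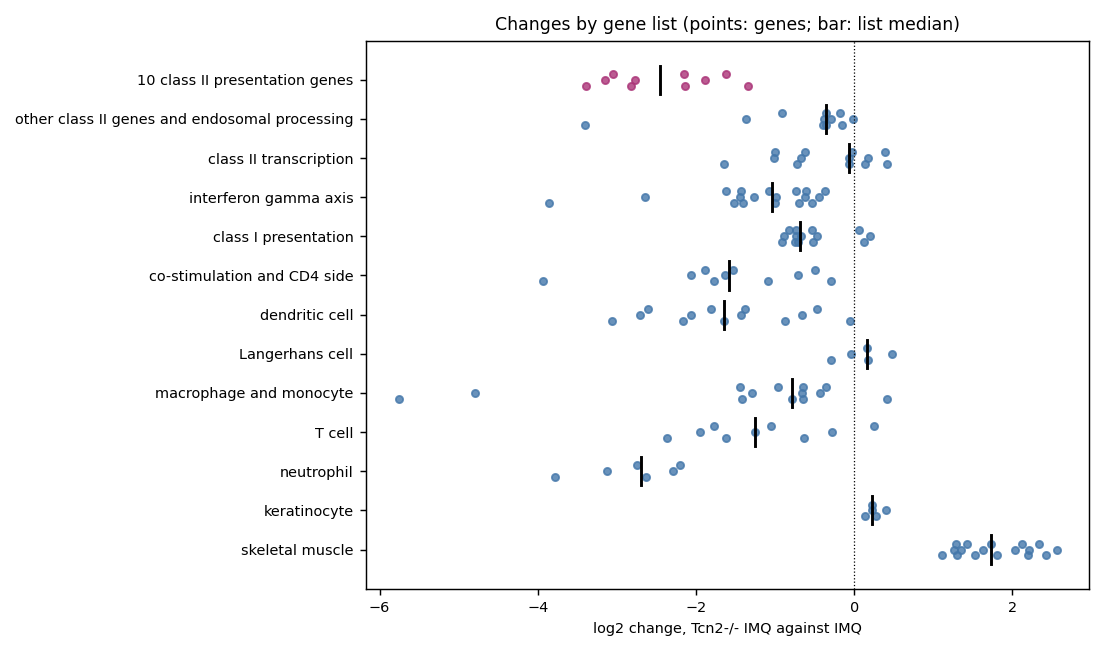
Log2 change of each tested gene of 13 lists in Tcn2-/- IMQ against IMQ (points) with the list median (bar). The 10 class II presentation genes have a median of −2.46, neutrophil genes −2.69, dendritic cell markers −1.64, keratinocyte markers 0.23 and skeletal muscle genes 1.73.

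Markers of the cells that carry class II moved with it in part. Of 13 dendritic cell markers, all had negative log2 changes against IMQ with a median of −1.64, 8 had an unadjusted p below 0.05, and edgeR called 0 and DESeq2 4. Against control 5 fell: Mgl2, Xcr1, Flt3, Itgax and Ccr7. All 5 calls were lost without any 1 of control replicates 2 and 3 and Tcn2-/- IMQ replicates 3 and 4. Those of Mgl2 and Xcr1 were lost in 10 and 9 of the 12 fits without 1 library, also without Tcn2-/- IMQ replicates 1 and 2 and IMQ replicates 3 to 5 (Mgl2 also without IMQ replicate 1). Flt3, the receptor that drives dendritic cell development, was at 1.48, 4.77 and 2.90 CPM in control, 1.86 to 4.48 CPM in IMQ and 0.475, 0.179, 0.495 and 0.292 CPM in Tcn2-/- IMQ libraries. Against control 12 of the 13 had negative log2 changes and 1 a positive one, and DESeq2 called 7 lower and 1 higher. The positive one was Fscn1, at 20.9 to 41.4 CPM in control and 49.0 to 105 CPM in Tcn2-/- IMQ libraries. The summed dendritic cell markers were at 81.9 to 428 CPM in control, 171 to 374 CPM in IMQ and 94.6 to 232 CPM in Tcn2-/- IMQ libraries. Of 5 Langerhans cell markers, 0 were called against IMQ by edgeR or DESeq2, and 0 had an unadjusted p below 0.05. Cd207, the langerin gene, was at 2.80 to 28.3 CPM (median 26.2) in control libraries. It was at 0.233 to 4.50 CPM in IMQ and 0.371 to 8.74 CPM in Tcn2-/- IMQ libraries. Its log2 change in IMQ against control was −2.74 (adjusted p = 0.196), and that of Epcam was −1.05 (adjusted p = 0.218). The other 3 of the list had positive changes: Cd24a at 2.05 (adjusted p = 0.0698, higher without overlap), Mfge8 at 0.30 and Tgfbr1 at 0.20. The list median was 0.20, and DESeq2 called 1 higher and 1 lower. The summed list was at 423 to 469 CPM in control and 609 to 861 CPM in IMQ libraries.

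Macrophage and monocyte markers differed in the size of their change. Of 13, edgeR called 0 and DESeq2 2 against IMQ, with 3 at an unadjusted p below 0.05 and a median of −0.79, and 1 fell against control, Ccr2, the chemokine receptor of inflammatory monocytes, with a log2 change of −4.86 (adjusted p = 0.0224). The Ccr2 call was lost in 4 of 12 fits without 1 library (control replicates 2 and 3 and Tcn2-/- IMQ replicates 3 and 4). Ccr2 was at 51.2 to 148 CPM in IMQ and at 4.40, 1.49, 4.88 and 2.80 CPM in Tcn2-/- IMQ libraries. Of the 13, 12 had negative log2 changes against IMQ, and 3 were lower without overlap: Ccr2, Ly6c2 and Mertk. Ly6c2 was at 2.54 to 72.8 CPM in IMQ and 0.119 to 0.475 CPM in Tcn2-/- IMQ libraries. For Mertk these ranges were 38.4 to 47.8 and 19.7 to 33.7 CPM. C1qa, a complement gene of resident macrophages, was at 131 to 301 CPM in IMQ and at 97.2, 15.9, 269 and 158 CPM in Tcn2-/- IMQ libraries. Mrc1, the mannose receptor of macrophages, was at 142, 69.6, 770 and 1176 CPM in Tcn2-/- IMQ against 207 to 1122 CPM in IMQ libraries. Tcn2-/- IMQ replicates 3 and 4, which had C1qa and Mrc1 within or above the IMQ range, held 15.6 and 34.3 CPM of Cd74, against 268 CPM in the lowest IMQ library. Over the whole list the summed level was 160 to 4038 CPM in control, 2105 to 7552 CPM in IMQ and 375 to 4675 CPM in Tcn2-/- IMQ libraries.

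**Figure D5:**
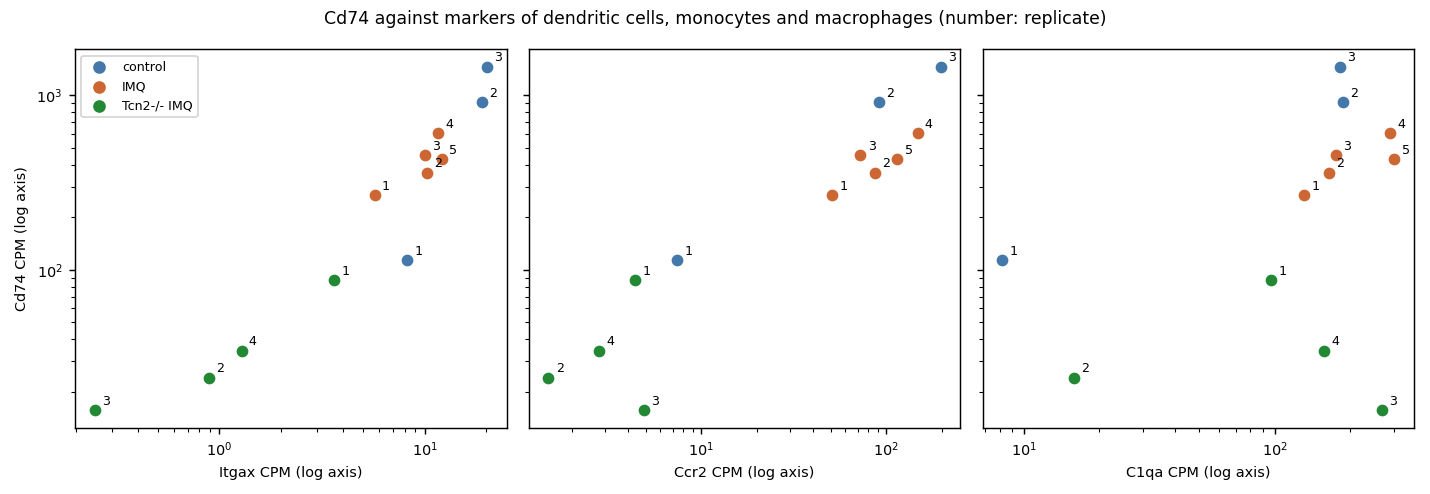
Cd74 CPM against the CPM of Itgax, Ccr2 and C1qa in each library, on log axes (number: replicate). Cd74 runs alongside Itgax and Ccr2, while in the C1qa panel Tcn2-/- IMQ replicates 3 and 4, at 269 and 158 CPM of C1qa, lie below the IMQ libraries at like C1qa.

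B cells, which also carry class II, were scarcely seen: the summed level of 8 B cell markers was 0.440 to 5.74 CPM in control, 8.86 to 15.8 CPM in IMQ and 0.476 to 3.21 CPM in Tcn2-/- IMQ libraries. Of these, 3 passed the filter, and against IMQ edgeR called 0, with 2 at an unadjusted p below 0.05, and DESeq2 called 3 of 8 lower. Of 9 T cell markers, edgeR called 0 and DESeq2 1 lower against IMQ, with 4 at an unadjusted p below 0.05 and a median log2 change of −1.26. Neutrophil genes, which are not known for class II, were lower as well: of 6, edgeR called 0 against IMQ and DESeq2 called 6, all 6 had an unadjusted p below 0.05, and the median log2 change was −2.69. Keratinocyte markers had a median of 0.23 and fibroblast markers of 0.04 against IMQ, with 0 called in either list by edgeR or DESeq2 and 0 at an unadjusted p below 0.05. Skeletal muscle genes had the other sign: all 17 tested had positive log2 changes against IMQ, with a median of 1.73, 15 at an unadjusted p below 0.05, and edgeR called 0 and DESeq2 11 higher. The part of muscle RNA in the class II values was not tested.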

How the data were processed

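Polyadenylated RNA of 12 skin libraries was sequenced, per the labels' protocols after fragmentation, random priming and PCR. The authors deposited raw counts per gene, and the submitters' processing notes name the GRCm39 build. The aligner, the annotation and the strand setting are not given in these sources, so reads of overlapping genes can be assigned to either. From these counts, 0 columns were left unmapped. The filter filterByExpr kept 18147 genes, libraries were scaled by TMM (0.927 to 1.12), and 1 quasi-likelihood model was fitted to all 12 libraries with edgeR 4.0.16 in R 4.3.3 (2-sided, called at an adjusted p below 0.05 over all genes, common biological coefficient of variation 0.463). DESeq2 1.42.0 was an alternative, beside the other settings given with the closing values. The code was tested on simulated counts. Values are CPM with TMM factors, errors are SD, and log2 CPM had a prior count of 2. Ratios of low counts carry an exact 95% interval that covers counting error only. All members, and from other lists any called gene, up to 4 with the smallest p and genes that a check turns on, were named. Members and lists were chosen with earlier results of these data known. Nothing says that replicates are separate animals, so p-values measure the spread between these libraries.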

Additional observations from a re-analysis of the deposited data

How the results depend on the processing

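None of the 10 genes had an outlying library in the IMQ or Tcn2-/- IMQ group (20 tests); the 3 controls are too few to test. For IMQ against control, edgeR called 223 genes, DESeq2 1070, a fit of only the 2 groups 541, sex as a factor 143, and leaving out 1 library 8 to 397, with 0 of the 10 genes called each time. Of their log2 changes, some took the other sign: Ciita (DESeq2 0.013, RLE factors 0.013, scaling without muscle and mitochondrial genes 0.023, only the 2 groups 0.024, sex 0.42), Cd74 and H2-DMa (sex 0.040 and 0.13), and H2-Oa and Ctss (−0.13 and −0.18 without control 1 and Tcn2-/- IMQ 2). Leaving out 1 library gave −0.53 to 0.58 for Ciita, −0.86 to 0.19 for H2-DMa, −0.95 to 0.039 for H2-DMb1, −0.13 to 0.73 for H2-Oa and −0.18 to 0.70 for Ctss. For Tcn2-/- IMQ against IMQ, edgeR called 5 genes, DESeq2 584, no filter 17, only the 2 groups 42, the 2 libraries lowest on the first component left out 51, and leaving out 1 library 1 to 95. Of the 10 genes DESeq2 called 7, only the 2 groups 4, and leaving out 1 library 0 to 5. For Tcn2-/- IMQ against control, edgeR called 238 genes, DESeq2 1029, only the 2 groups 102, sex 27, the 2 libraries left out 396, and leaving out 1 library 3 to 428. Of the 10 genes only the 2 groups called 0, sex 0, and leaving out 1 library 0 to 7. The cause of these shifts was not tested. The number of the 10 genes lower without overlap, recounted without the 2 libraries (a setting chosen after the data were seen), was 6, 8 and 10 in the 3 comparisons against 0, 8 and 5 with all libraries. The log2 changes of the 10 genes stayed negative in both comparisons of Tcn2-/- IMQ under each setting in which the gene was fitted. Every gene of the other lists called lower against control also lost its call with sex as a factor and, Cxcl9 apart, with the replicate block (adjusted p = 0.0731 to 0.205).

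Same-numbered libraries deviated together in some pairs and not in others (r of 0.05, −0.11 and 0.26 for IMQ and control, −0.12, 0.42, 0.22 and 0.19 for Tcn2-/- IMQ and IMQ, 0.02, −0.53 and 0.30 for Tcn2-/- IMQ and control), so the numbers were not used as pairs. With the replicate block, 46, 0 and 20 genes were called in the 3 comparisons, and 0, 0 and 0 of the 10 genes. The log2 change of Cd74 under the replicate block was −3.35 against IMQ (adjusted p = 0.421) and −4.40 against control (adjusted p = 0.195).

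H2-Oa, H2-DMb2 and H2-Eb2 had few counts in Tcn2-/- IMQ libraries. Groups of 3 to 5 libraries limit the rest. Among controls, replicate 1 alone did not have Xist above Ddx3y. Sex and group can thus be told apart only through that library and IMQ replicate 1.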
